A study of Mus musculus with 2 samples.

Results

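The 36 genes described here encode the enzymes that load amino acids onto transfer RNA, the aminoacyl-tRNA synthetases. They were taken as a named list from the 69691 entries of each gene table, by gene identifier without its version, through GENCODE M21 symbols, and all 36 were found. Of these, 20 serve the cytosol and 16 serve the mitochondrion only. Among the 20, Gars and Kars make the glycine and lysine enzymes of both compartments. The RNA came from G1E-ER4 cells, an immortalized mouse erythroid line that the labels give as male, postnatal and of strain C57BL/6J. G1E cells lack a working Gata1 gene, and the ER4 line carries a GATA1 that is active only with estradiol. All cells had received 17β-estradiol at 10 nM over 24 h, and 2 biological replicates form the only group. Without an untreated group the data hold levels only, so nothing was tested and p-values do not apply. Both replicates come from the same line, and nothing beyond their label as biological replicates says how separate the cultures were.

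Each synthetase recognises an amino acid and its transfer RNAs, joins them, and so sets which amino acid a codon is read as. The enzymes fall into 2 unrelated structural classes, I and II. In the cytosol, 8 of the proteins described here (Dars, Eprs, Iars, Kars, Lars, Mars1, Qars and Rars) sit with 3 scaffold proteins in a multisynthetase complex. Most mitochondrial enzymes are separate nuclear genes, whose products are imported and serve the 13 proteins made in the organelle. Many cytosolic synthetase genes are known targets of ATF4, the transcription factor of the amino acid response, which binds with C/EBP proteins at an element with the core TGATGNAA.

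That element, read on both strands, was looked for in RefSeq promoters (GRCm38.p6), each 250 bases before to 50 bases after the annotated start. A promoter was found by symbol for 27 of the 36 genes. It was held by 5 of 13 cytosolic genes, which are Aars, Gars, Iars, Tars and Yars, and by 0 of 14 mitochondrial genes. Of all 27025 genes in the promoter table, 4.51% had it. The site nearest the start of each of the 5 genes is shown, and the search itself makes the element letters alike except at N. Each is written along the gene's own strand with 11 bases on each side, and capitals mark the element or its reverse complement.
Aars, chr8:111033840-111033869, plus strand: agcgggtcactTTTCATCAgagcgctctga
Gars, chr6:55037960-55037989, plus strand: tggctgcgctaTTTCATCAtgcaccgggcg
Iars, chr13:49682126-49682155, plus strand: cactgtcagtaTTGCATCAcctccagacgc
Tars, chr15:11399655-11399684, minus strand: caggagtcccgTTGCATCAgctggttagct
Yars, chr4:129189895-129189924, plus strand: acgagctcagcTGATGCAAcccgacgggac
The first letter of the element lies at +10 in Aars, -30 in Gars, +8 in Iars, -15 in Tars and +4 in Yars, counted from the annotated start with no position 0. It reads forward in Yars and reversed at the other 4 sites. A match of letters does not show that a factor binds there, and no match says only that these letters are not in the window.

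Levels are given in TPM, which divides estimated counts by transcript length and scales each library to a fixed total. The expected counts, estimated reads or fragments per gene, totalled 50277914 and 47478888 in replicates 1 and 2. Nuclear protein-coding genes took 14373925 and 13901316 of them. Nuclear protein-coding genes made up 22.7% and 22.9% of TPM, so each TPM here is small against the total. A gene was called detected at 1 TPM or above in each replicate. Of the erythroid markers, 6 of 6 were detected, with Klf1 at 24.8 and 29.0 TPM, Hbb-bs at 994 and 1008 and Hba-a2 at 162 and 157. Gata1 stood at 57.6 and 65.7 TPM, and reads of the introduced GATA1 may be part of that value. None of 5 granulocyte and macrophage, 3 lymphoid and 3 stromal and endothelial markers was detected, and the summed TPM of those lists was at most 4.22, 0 and 0.13. Mpo, at 0.06 and 1.29 TPM in replicates 1 and 2, and Cd68, at 0.90 and 2.08, passed 1 TPM in replicate 2 only. Elane stood at 0 and 0.68 TPM, Lyz2 at 0.26 and 0.17 and Csf1r at 0 in both. 

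All 36 synthetase genes were detected, where 40.2% of 21461 nuclear protein-coding genes were. With the level set at 5 TPM, 27 of the 36 remained, as did 5960 of the 21461. The fewest expected counts for a member in a replicate were 154, for Sars2. The cytosolic and shared genes had a median of 36.2 TPM in replicate 1 and 35.4 in replicate 2. The mitochondrial genes without Lars2 had a median of 4.35 and 5.33. Detected nuclear protein-coding genes as a whole had medians of 9.64 and 9.88, between those of both groups. Ranked among these detected genes, the median cytosolic gene stood at percentile 86.2 and the median mitochondrial gene without Lars2 at percentile 26.8. Levels ran from 1.74 to 1854 TPM over all members, and from 1.74 to 100.2 without Lars2.

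**Figure D1:**
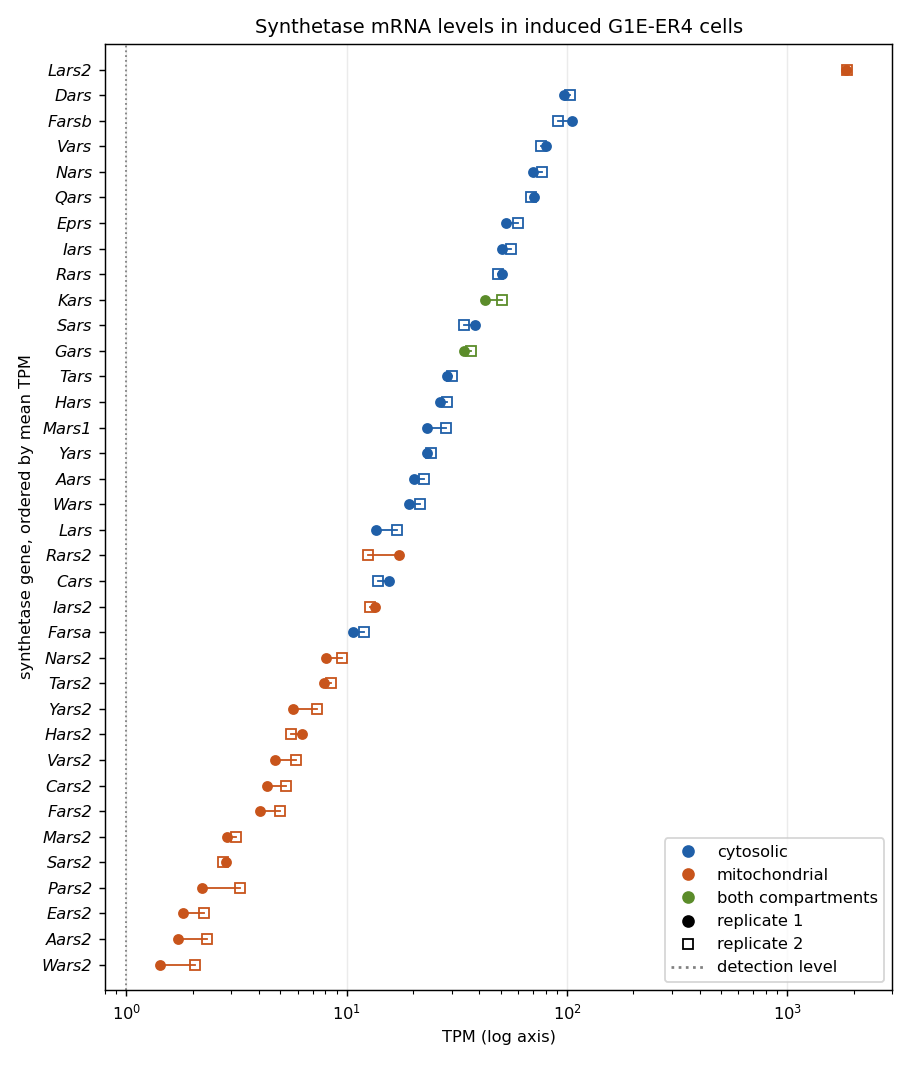
TPM (log axis) of the 36 synthetase genes, ordered by mean; filled circles are replicate 1, open squares replicate 2, colours give the compartment and the dotted line is the detection level of 1 TPM. Lars2 stands apart near 1854 TPM, most cytosolic genes lie above 15 TPM and most mitochondrial genes below 10.

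Dars, the aspartate enzyme of the multisynthetase complex, was the highest cytosolic gene at 97.2 and 103.3 TPM in replicates 1 and 2, and ranked 318 among nuclear protein-coding genes. Farsb, the beta subunit of the cytosolic phenylalanine enzyme, followed at 105 and 90.6 TPM. Its range overlapped that of Dars, so their order is not set by these replicates. Vars, the valine enzyme, stood at 80.7 and 76.3 TPM. Nars, the asparagine enzyme, stood at 70.0 and 77.3 TPM. The ranges of Vars and Nars overlapped as well, and both lay below those of Dars and Farsb. Of the 35 neighbouring genes in the order of means, 20 pairs of neighbours had overlapping replicate ranges.

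The lowest cytosolic genes were Farsa, Cars and Lars. Farsa, the alpha subunit of the phenylalanine enzyme, stood at 10.6 and 11.97 TPM. Cars, which charges cysteine, stood at 15.6 and 13.9 TPM, and Lars, which charges leucine, at 13.6 and 16.9 TPM. Cars and Lars overlapped each other, and Farsa lay below both. The phenylalanine enzyme is built from equal numbers of Farsa and Farsb subunits as protein, whereas TPM measures RNA. The Farsb over Farsa ratio of TPM was 9.87 in replicate 1 and 7.57 in replicate 2 (8.72 ± 1.62, SD, n = 2). On expected counts, with no division by length, that ratio was 7.03 and 6.14. On transcripts annotated as coding only, Farsb stood at 89.6 and 71.3 TPM and Farsa at 4.95 and 3.26. Much of that Farsb level is assigned to short transcripts. Farsb-203, of 970 bases, had 34.15 and 25.16 TPM, and Farsb-206, of 619 bases, 23.48 and 13.26. The longer Farsb-201, of 1951 bases, had 30.8 and 28.3 TPM, and Farsb-202, of 2036 bases, 1.18 and 4.61.

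The 8 genes of the multisynthetase complex had a median of 50.6 and 53.1 TPM. The 12 cytosolic genes outside it had a median of 27.5 and 29.2. Both groups ran over a wide span, from 15.3 (Lars) to 100.2 (Dars) inside the complex and from 11.3 (Farsa) to 97.8 (Farsb) outside it. Qars, the glutamine enzyme, stood at 70.8 and 68.9 TPM. Eprs, 1 protein that charges glutamate and proline, stood at 53.1 and 59.7 TPM. Iars stood at 50.7 and 55.6, and Rars at 50.5 and 48.4. These charge isoleucine and arginine, and with Qars, Eprs, Kars and Dars they make 6 of 8 complex genes above 45 TPM by mean. That count is over all transcripts. On transcripts annotated as coding only, Qars stood at 11.8 and 10.5 TPM, Eprs at 39.7 and 41.7 and Rars at 41.2 and 41.3. Dars then stood at 91.6 and 99.0 TPM, Iars at 48.6 and 47.3 and Kars at 42.6 and 50.5. Mars1, the methionine enzyme, was lower at 23.0 and 28.2 TPM. By structural class, the 9 cytosolic genes of class I had medians of 23.2 and 28.2 TPM and the 10 of class II 36.2 and 35.4, with Eprs in neither since it holds a domain of each.

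Kars makes the lysine enzyme of both compartments by alternative splicing, and stood at 42.6 and 50.5 TPM. Gars makes the glycine enzyme of both compartments from a single gene with different translation starts, and stood at 34.0 and 36.8 TPM. Kars-201 held 77.7% of the gene's TPM in replicate 1 and 89.0% in replicate 2. Kars-202 held 19.2% and 7.37%, and Kars-203 3.09% and 3.59%. The leading transcript was thus the same in both replicates, while Kars-202 differed by over 2-fold in share. Which of them holds the mitochondrial signal was not read from the files. Gars had 1 transcript in the tables, so its 2 protein forms cannot be told apart there.

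Among cytosolic genes not yet given, Sars (serine) stood at 36.2 ± 3.12 TPM and Tars (threonine) at 29.2 ± 0.983 (SD, n = 2). Hars (histidine) stood at 27.4 ± 1.39 TPM, Yars (tyrosine) at 23.7 ± 0.693, Aars (alanine) at 21.4 ± 1.67 and Wars (tryptophan) at 20.3 ± 1.68. Hars lay above Yars in both replicates, and Mars1 overlapped both. The 5 genes with the TGATGNAA element had medians of 28.5 and 29.9 TPM, and the 8 cytosolic genes with a promoter sequence and no element had medians of 47.9 and 55.1. Both sets ran over wide spans, from 21.4 to 53.1 TPM with the element and from 11.3 to 100.2 without.

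Leaving Lars2 aside, the highest mitochondrial genes were Rars2, Iars2 and Nars2. Rars2, for arginine, stood at 17.2 and 12.5 TPM. Iars2, for isoleucine, stood at 13.5 and 12.7 TPM. Nars2, for asparagine, stood at 8.04 and 9.50 TPM. Rars2 and Iars2 were the only 2 of 15 that were not below every cytosolic gene in both replicates. Seen from the other side, 17 of 20 cytosolic genes were above every mitochondrial gene but Lars2 in both replicates. The exceptions were Farsa, Cars and Lars.

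The lowest were Wars2, Aars2 and Ears2, which charge tryptophan, alanine and glutamate. Wars2 stood at 1.42 and 2.05 TPM from 190 and 188 expected counts. Aars2 stood at 1.71 and 2.33 TPM from 182 and 236 counts. Ears2 stood at 1.81 and 2.24 TPM from 244 and 256 counts. Each of these overlapped the next, so their order is not set. The other 9 lay between 2.74 (Pars2) and 8.17 (Tars2) by mean, in the rising order Pars2, Sars2, Mars2, Fars2, Cars2, Vars2, Hars2, Yars2 and Tars2. They charge proline, serine, methionine, phenylalanine, cysteine, valine, histidine, tyrosine and threonine.

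For each amino acid with separate enzymes in both compartments, cytosolic TPM was divided by mitochondrial TPM within each replicate. This gave 16 pairs with leucine set apart, in which Eprs is set against both Ears2 and Pars2, and both Farsa and Farsb against Fars2. The cytosolic gene was higher in both replicates in 16 of 16 pairs. All 16 were 2-fold or more apart in both replicates, and 6 were 10-fold or more. The median ratio was 8.37 in replicate 1 and 8.53 in replicate 2. Genes are no replicates of each other, so these counts describe the list.

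**Figure D2:**
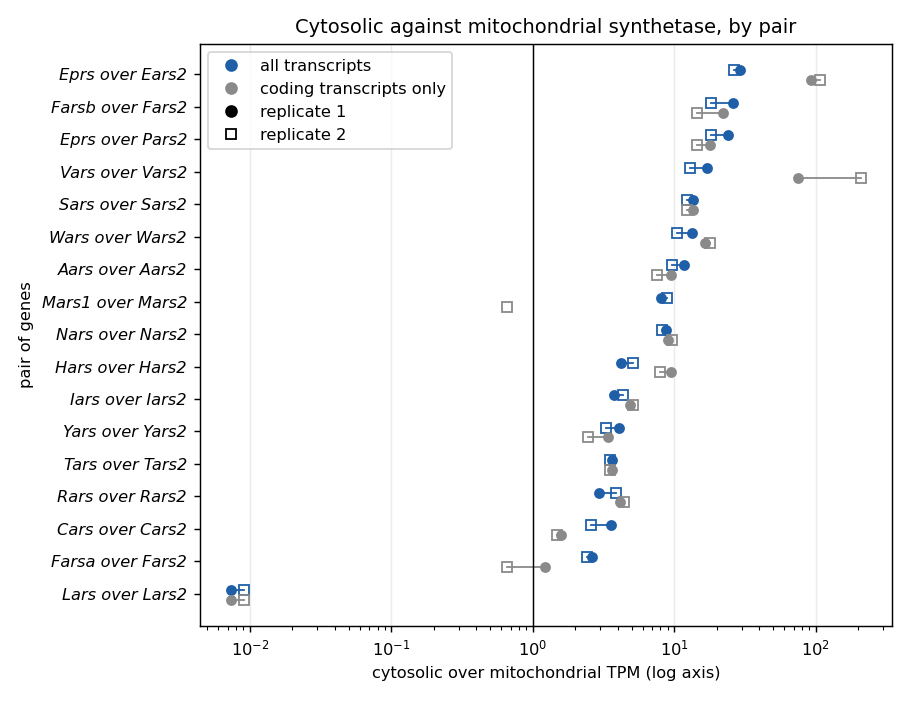
Cytosolic over mitochondrial TPM (log axis) for each pair, with all transcripts (blue) or only transcripts annotated as coding (grey); filled circles are replicate 1, open squares replicate 2, and the line marks equal levels. With all transcripts the 16 pairs other than Lars over Lars2 lie to the right of the line; the replicate 1 coding value of Mars1 over Mars2 is 0 and cannot be drawn.

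On TPM over all transcripts, the largest ratio was that of Eprs over Ears2, at 29.3 and 26.7. Farsb over Fars2 followed at 25.9 and 18.3, and Eprs over Pars2 at 24.1 and 18.2. The ranges of the last pair of ratios overlapped. The smallest was Farsa over Fars2 at 2.63 and 2.41, so that the 2 subunits of the cytosolic phenylalanine enzyme mark nearly both ends of the scale against the same partner. Cars over Cars2 was 3.59 and 2.60, and Rars over Rars2 was 2.94 and 3.87. No pair was under 2-fold on TPM. On expected counts, the cytosolic gene was again higher in 16 of 16 pairs and 14 were 2-fold or more apart in both replicates. The other 2 were Mars1 over Mars2, at 1.42 and 1.54 on counts against 8.03 and 8.92 on TPM, and Farsa over Fars2, at 2.24 and 1.97. On counts, the median ratio was 6.16 and 6.31, and the largest was that of Eprs over Pars2, at 41.8 and 33.9.

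Leucine went the other way. Lars stood at 13.6 and 16.9 TPM and Lars2 at 1844 and 1863 TPM, so that Lars2 over Lars was 135 and 111 (123 ± 17.4, SD, n = 2). Lars2 ranked 4 among nuclear protein-coding genes and held 76.9% and 76.2% of the expected counts of all 36 genes, from 228740 and 219521 counts. Against Iars2, a mitochondrial enzyme for a chemically close amino acid, Lars2 TPM was 137-fold and 146-fold higher. No other mitochondrial member exceeded 17.2 TPM in a replicate. The Lars2 log2 ratio between replicates was 0.02, the smallest in size of all 36.

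The tables give Lars2 a single transcript, which spans 3894 bases in M21 and codes up to base 2905. Its bases 3163 to 3349, past the stop codon (chr9:123461933-123462119), match AA474408, an entry of unassigned type, at 80.1% identity over 196 aligned bases. Bases 3278 to 3349 match Gm15564, annotated as antisense, at 98.6% over 72 bases. AA474408 stood at 0.970 and 1.18 TPM, and Gm15564 at 0.110 and 0.380, both far below Lars2. None of the 36 genes had a match, at an expected number of 1e-10 or less, to the 356 ribosomal RNA transcripts of M21 or to the ribosomal loci Gm42418, Gm26917 and AY036118. The sequence of 28S ribosomal RNA was not used here. A table with 1 value per transcript does not show where on Lars2 the reads fall, and the part of ribosomal RNA reads in its level was not tested.

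Between replicates, 0 of the 36 genes differed by 2-fold or more, where 1.95% of 8808 nuclear protein-coding genes averaging at least 1 TPM did. The log2 ratio, replicate 2 over replicate 1 of TPM with a pseudocount of 0.1, had a median of 0.13 over the members and 0.03 over those genes. Its SD was 0.21 over the members and 0.37 over those genes. Of the 36, 26 were higher in replicate 2 and 10 in replicate 1, and of the 8808 genes 4819 and 3959 were. Among the mitochondrial genes without Lars2 the median was 0.29, with 11 of 15 higher in replicate 2, and among cytosolic genes it was 0.11, with 14 of 20. With expected counts scaled by TMM or by DESeq2 size factors, again 26 of the 36 were higher in replicate 2. So were 13 of 15 mitochondrial genes without Lars2 and 13 of 20 cytosolic genes. The medians were smaller, at 0.07 over the members and 0.09 over mitochondrial genes without Lars2. The furthest apart were Pars2, at 2.20 and 3.28 TPM with a log2 ratio of 0.56, and Wars2, with 0.50. Rars2 was furthest the other way, at -0.46. With 2 libraries these are differences between the libraries and not between conditions.

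**Figure D3:**
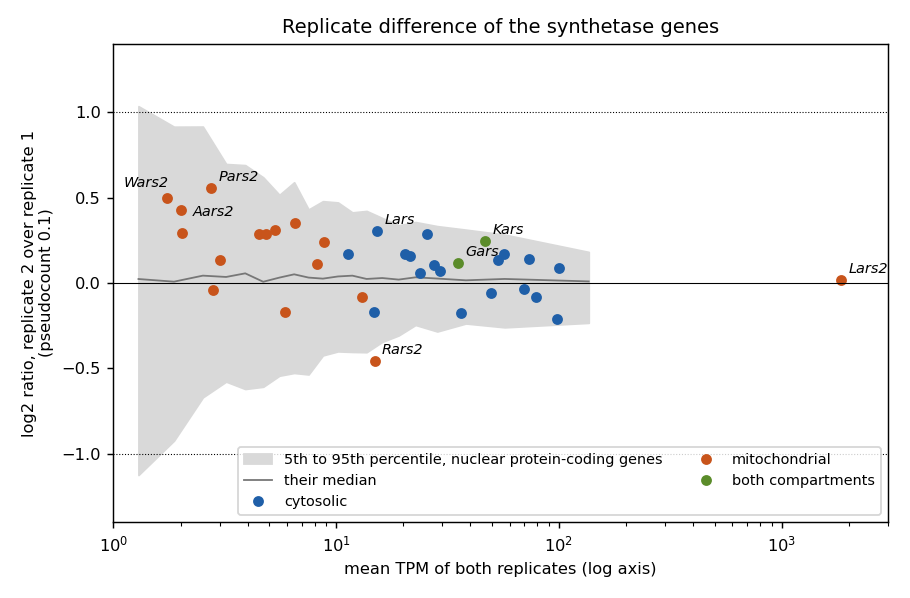
Log2 ratio of TPM, replicate 2 over replicate 1, against mean TPM (log axis) for the 36 genes; the grey band holds the 5th to 95th percentile of nuclear protein-coding genes of like level, the grey line their median, and dotted lines mark 2-fold. No member reaches 2-fold, and 11 of 15 mitochondrial genes other than Lars2 lie above 0.

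The transcript tables show which transcripts carry these levels. Of the 36 genes, 10 had 1 transcript and 26 several. The leading transcript by TPM was the same in both replicates for 19 of the 26, and no share over all genes is given beside this. In 27 of 36 genes, 80% or more of expected counts fell on transcripts annotated as protein-coding in both replicates, where 72.9% of 8620 detected nuclear protein-coding genes reached that share. In 5 genes, less than 50% did in both replicates, against 6.82% of the same 8620, and these were Mars1, Ears2, Vars2, Vars and Qars. Short and overlapping transcripts share reads, so the split within a gene is an estimate.

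Mars1 was the extreme case. Of its 1502 and 1703 counts, 0% and 3.93% fell on coding transcripts. The full-length coding transcript Mars-201 had 0 and 41.8 counts. A transcript annotated with a retained intron, Mars-205 of 3065 bases, had 1389 and 1519. Nearly all of the level of Mars1 is therefore assigned to transcripts annotated with a retained intron. Ears2 had 11.3% and 9.23% of its counts on coding transcripts, and Vars2 had 22.7% and 8.59%. Vars had 39.3% and 44.2%, with the retained-intron transcript Vars-203 at 1926 and 1609 counts beside the coding Vars-201 at 1345 and 1234. Qars had 44.0% and 41.2%, and its leading transcript by TPM is assigned to the neighbouring gene Qrich1 in M21. A further 22.1% and 23.2% of Qars counts fell on a transcript that M21 does not list, which was counted as not coding, and the place of Qars among these 5 rests on that.

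**Figure D4:**
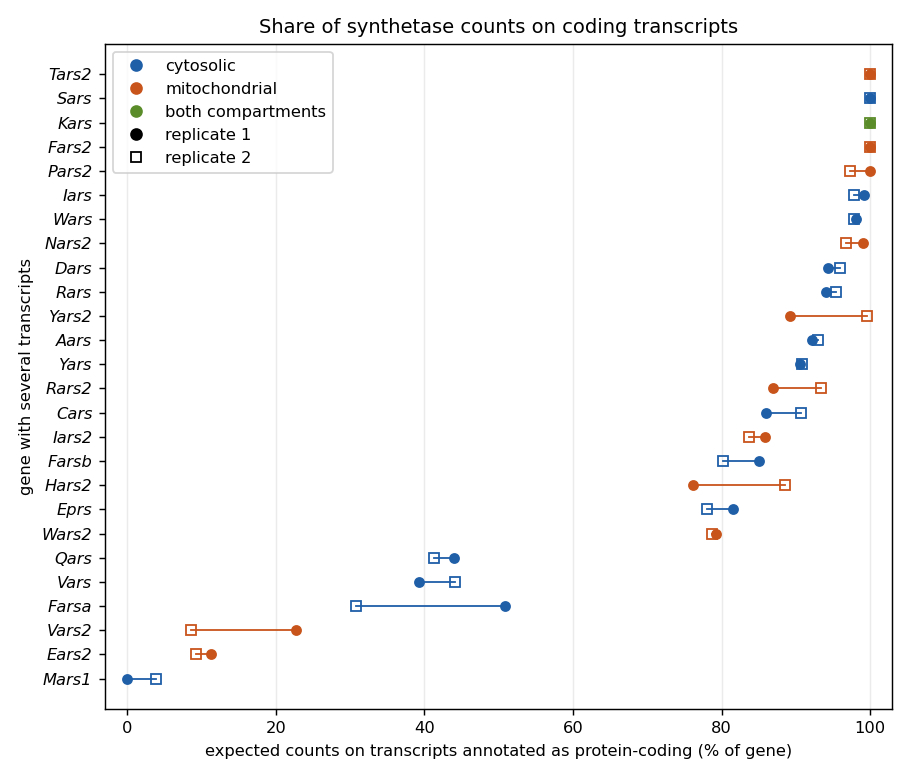
Percent of each gene's expected counts on transcripts annotated as protein-coding, for the 26 genes with several transcripts; filled circles are replicate 1, open squares replicate 2, and colours give the compartment. Mars1, Ears2 and Vars2 lie at the low end, all under 25% in both replicates, while Tars2, Sars, Kars and Fars2 are at 100%.

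Counting only coding transcripts, 33 of 36 genes were detected, and Mars1, Ears2 and Vars2 were not. Of the detected nuclear protein-coding genes, 94.6% stayed so on coding transcripts. The cytosolic gene was then higher in both replicates in 14 of 16 pairs. Pairs moved both ways. Vars over Vars2 was 74.5 and 209, the largest by mean, and Eprs over Ears2 was 92.3 and 107, with overlapping ranges. Both rest on partners below detection on coding transcripts, Vars2 at 0.48 and 0.19 TPM and Ears2 at 0.43 and 0.39. Cars over Cars2 was lower than with all transcripts, at 1.59 and 1.49. Farsa over Fars2 was 1.22 and 0.657, so its direction differed between replicates, and Farsa itself had 50.8% and 30.8% of counts on coding transcripts. Mars1 over Mars2 was 0 and 0.658, with the mitochondrial gene higher in both. Wars changed its leading transcript, with the coding Wars-201 at 87.0% and 39.3% of TPM and the coding Wars-205 at 5.02% and 49.6%. The total of Wars differed far less, at 19.1 and 21.5 TPM.

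Several members overlap neighbours on the genome. Mars1 and Ddit3, which encodes the stress factor CHOP, overlap tail to tail over 68 bases on opposite strands, and Hars and Hars2 overlap head to head over 198 bases. Iars2 and Rab3gap2 overlap over 2034 bases on opposite strands. Aars overlaps Exosc6 over 1326 bases on the same strand, and no value for Exosc6 was found by its M21 identifier. Whether counting used strand is not given in the sources used here, and without strand the reads of partners on opposite strands cannot be told apart. Strand would not separate Aars from Exosc6, so reads of Exosc6 could be held in the Aars level. Between cytosolic and mitochondrial partners, nucleotide matches were found in 3 of 17 pairs, at 74.7% identity for Hars with Hars2, 66.3% for Aars with Aars2 and 64.0% for Vars with Vars2. The transcripts of Hars and Hars2 are also identical, on opposite strands, over 195 bases where the genes overlap. In all, 13 of the 36 genes share 60 or more bases at 95% or more identity with a transcript of another gene, the overlaps above among them. All but Iars and Lars2 share them with a gene that they overlap on the genome. No share over all genes is given beside this count.

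Genes that work beside the synthetases are given from lists. The 3 scaffold proteins of the multisynthetase complex were all detected, with Eef1e1 at 20.0 and 18.8 TPM, Aimp1 at 19.1 and 18.5 and Aimp2 at 10.3 and 13.6. All 3 lay below the median of the complex's enzymes. Mitochondria lack a glutamine enzyme and instead amidate transfer RNA that Ears2 has charged with glutamate, through a 3-subunit enzyme. Its subunit Gatc stood at 17.1 and 20.7 TPM, Gatb at 2.78 and 3.99 and Qrsl1 at 1.27 and 1.84. All 3 were detected, and the replicate ranges of Qrsl1 and Ears2 overlapped.

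Past the synthetases, elongation factors carry charged transfer RNA to the ribosome. Eef1a1, the cytosolic carrier, stood at 4990 and 5203 TPM. Tufm, its mitochondrial counterpart, stood at 22.8 and 28.0 TPM, and Mtfmt, which formylates the mitochondrial initiator, at 4.46 and 7.37. The cytosolic step again had the higher level. Of 5 genes that proofread or finish transfer RNA, 5 were detected, with Trnt1, which adds the CCA end, at 16.4 and 18.5 TPM. Prorsd1 stood at 11.62 and 11.61 TPM and Aarsd1 at 11.3 and 9.26. Both are thought to remove wrongly loaded amino acids. Dtd1, a deacylase that removes D-amino acids, was lowest at 4.12 and 4.75 TPM. The selenocysteine genes Sepsecs, Secisbp2 and Pstk were detected at 7.87 ± 0.912, 7.67 ± 2.07 and 6.19 ± 0.573 TPM (SD, n = 2).

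Of 10 genes tied to ATF4, 7 were detected. Asns, the asparagine synthetase and a standard target of ATF4, stood at 518 and 535 TPM, above every member but Lars2. Shmt2 and Psat1, enzymes of serine and glycine metabolism, stood at 89.8 and 88.1 and at 78.0 and 80.1 TPM. Atf4 itself stood at 8.11 and 9.58 TPM. Not detected were Chac1, with 0 counts in both libraries, Phgdh, with 0 and 4 counts, and Slc7a11, at 0.110 and 0.210 TPM. A count of 0 allows up to 3 counts in a library, as counting error only. Genes of this list thus lay at both ends of the scale, and with 1 group no induction can be read from these levels.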

How the data were processed

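Total RNA (size range above 200, per the labels) was sequenced in 2 libraries. Reads were assigned to mm10, per the labels, with GENCODE M4, which the deposited notes name. For the aligner, the quantifier version and the strand setting nothing is given in the sources used here. Per gene and transcript, the authors estimated and deposited expected counts, TPM and FPKM values. TPM is scaled over all listed features, and the ribosomal loci Gm42418, Gm26917, mt-Rnr1 and mt-Rnr2 together held 65.3% and 64.6% of it. The authors also deposited, for each transcript, its percent of the gene's TPM. Names, coordinates and transcript types came from GENCODE M21 (GRCm38, the assembly of mm10), and promoters from RefSeq (GRCm38.p6).

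Members and lists were chosen with earlier results of these data known. All 36 members are named. Values are given in full for the 4 highest and 3 lowest of each compartment, for Gars, Kars, Lars and Lars2, and for the extreme pairs. Of helper lists other than the cell type markers, the 3 highest and the lowest are named. The marker lists did not follow this rule, and only some of their genes are named. Other genes and transcripts (Atf4, Phgdh, Slc7a11, transcripts of Farsb, Mars1, Vars and Wars) were chosen after their values were seen. Ratios were taken within each replicate. No source used here names molecular identifiers, so a floor of 3 counts covers counting error only. With 1 group no test was run. Some results are not reported here. TMM of edgeR 4.0.16 and size factors of DESeq2 1.42.0 (R 4.3.3), on expected counts rounded to whole numbers, gave alternative scalings. Transcripts were compared with BLAST+ 2.17.0, and tables and plots were made with pandas 2.3.3, numpy 2.4.6 and matplotlib 3.10.9 in Python 3.11.15. Alternatives changed the unit, threshold, pseudocount, filter and scaling, and left out each replicate.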

Additional observations from a re-analysis of the deposited data

How the results depend on the processing

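With posterior mean TPM the cytosolic median was 35.0 TPM and Lars2 1808. Rescaled to a total over nuclear protein-coding genes without Lars2, the cytosolic median was 158, the mitochondrial median without Lars2 21.4 and Lars2 8208, since the total is smaller. The median pair ratio of 8.45 was 6.24 on expected counts, 8.28 with posterior means and 8.08 with leucine included. Leaving out each replicate gave cytosolic medians of 35.4 to 36.2, mitochondrial medians of 4.35 to 5.33, Lars2 levels of 1844 to 1863 and median ratios of 8.37 to 8.53, with 36 members detected and 16 pairs higher in the cytosol each time. With coding transcripts only, an alternative chosen after seeing the data, Mars1 over Mars2 reversed, with a mean ratio of 0.329, and Farsa over Fars2 had a mean ratio of 0.940 with its replicates on either side of 1. The cause was not tested. No member was 2-fold apart between replicates under any pseudocount, filter or scaling tried, and the members' median log2 ratio was 0.07 in place of 0.13 with both count scalings. No paired analysis was possible because the series has 1 group. Depth limits the lowest mitochondrial genes, which rest on 154 to 256 counts a library.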

Other observations

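How often each amino acid is used by the expressed mRNAs was set beside its synthetase level, as a comparison chosen after the levels were seen. Codons of the longest coding transcript of each gene were weighted by the gene's TPM, over 11312 nuclear genes without Lars2 and, with the mitochondrial code, over 13 mitochondrial mRNAs. In the cytosol the most used amino acid was leucine, at 8.99% of residues, and its enzyme gene Lars was among the 3 lowest cytosolic synthetases. Aspartate, at 5.12%, had the highest, Dars. Over 20 amino acids, taking the lower of Farsa and Farsb for phenylalanine, usage and TPM had a Spearman correlation of 0.27. The level of Eprs entered it for both glutamate and proline. In the mitochondrion, leucine was 15.5% of residues and isoleucine 10.2%, beside 1.56% for arginine, while Rars2 and Iars2 were the highest mitochondrial genes after Lars2. Leucine was left out there with Lars2, and aspartate and glutamine for want of a member gene. Over the other 17 amino acids, with the shared Gars and Kars for glycine and lysine, the correlation was -0.02. Amino acids are no replicates, all points share both libraries, and usage in mRNA is not the rate of translation.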
